A study of Mus musculus with 4 samples.

Results

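The genes described here are the mouse Wnt ligands, their Frizzled receptors and the Tcf/Lef transcription factors, with the co-receptors Lrp5 and Lrp6, beta-catenin (Ctnnb1) and Axin2. They are the protein-coding RefSeq genes whose symbol is Wnt or Fzd followed by a digit, together with 8 genes named one by one, and they number 37 of 21883 protein-coding genes. The rule uses no measured value. The set holds 19 ligands, 10 Frizzled receptors, 2 co-receptors, 4 Tcf/Lef factors, Ctnnb1 and Axin2.

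Open chromatin was mapped with ATAC-seq, in which a transposase inserts adapters where DNA is accessible, in mpkCCD clone 11 cells, a mouse line with features of collecting duct principal cells. All cells were confluent on permeable supports and in medium free of serum and hormones, and they received either 0.1 nM dDAVP, a vasopressin analog that acts on the V2 receptor, or its vehicle, and were harvested after 30 minutes. Each treatment had 2 libraries of 50000 cells. Nothing in the labels says that libraries of the same treatment were cultured separately, so p-values measure only the spread between these libraries, which could be technical.

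Wnt proteins are secreted, lipid-modified ligands that bind Frizzled receptors and the Lrp5 or Lrp6 co-receptor. In the canonical branch this stops a complex built on Axin from marking beta-catenin for destruction, and beta-catenin then enters the nucleus and works with Tcf/Lef factors bound to DNA. Other branches act through planar cell polarity or calcium. In the kidney, Wnt9b and Wnt11 from the branching ureteric epithelium, the source of the collecting ducts, act in nephron induction and branching, Wnt4 drives mesenchyme to become tubule, and Wnt7b from the collecting duct shapes the medulla.

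Each library was deposited as a list of peak positions, with no height, score or read depth. Vehicle replicates 1 and 2 had 393956 and 206972 peaks, and dDAVP replicates 1 and 2 had 291454 and 205771. The longest list was 1.91 times the shortest, and because depth is unknown, a peak missing from a library cannot be told apart from one that was not detectable at its depth. Of 12 principal cell markers, 9 had a peak at a gene end in all 4 libraries, beside 65.0% of all protein-coding genes. Aqp3, Avpr2 and Scnn1b did not. Of 16 markers of other kidney or blood cells, 5 did (Lrp2, Wt1, Kdr, Col1a1 and Cd68) and Nphs1, Col3a1 and Ptprc had none in any library.

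Promoter sequence from RefSeq (build GRCm38.p6, which mm10 denotes) was given for 27 of the 37 genes, and Fzd2, Fzd3, Fzd6, Fzd8, Lrp5, Lrp6, Wnt5a, Wnt7b, Wnt8a and Wnt10a had no entry. Each promoter window runs from 250 bases before an annotated start to 50 bases after it, 5′ to 3′ on the gene's strand. Capitals mark matches, on either strand and counted where they overlap, to CTTTGA and its variant CTTTGT (the core bound by Tcf/Lef factors), the GC box GGGCGG, the CCAAT box, the TATA box spelled TATAAA, and TGACG, which forms part of the cAMP response element. A match is a description of the letters and not a measured site.

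The first 3 windows belong to the ligand, the receptor and the nuclear factor with the widest gene-end peaks among genes whose window was covered in every library. They are Wnt9a at chr11:59306680-59306979 (plus strand), Fzd7 at chr1:59481897-59482196 (plus strand) and the first start of Tcf7l2 at chr19:55741560-55741859 (plus strand).
Wnt9a: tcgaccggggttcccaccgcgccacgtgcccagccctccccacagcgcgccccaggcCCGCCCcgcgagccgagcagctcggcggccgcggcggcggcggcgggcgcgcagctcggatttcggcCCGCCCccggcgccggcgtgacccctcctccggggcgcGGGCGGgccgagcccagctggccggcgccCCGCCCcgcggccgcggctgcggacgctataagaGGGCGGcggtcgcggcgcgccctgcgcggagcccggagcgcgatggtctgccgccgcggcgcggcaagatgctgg
Fzd7: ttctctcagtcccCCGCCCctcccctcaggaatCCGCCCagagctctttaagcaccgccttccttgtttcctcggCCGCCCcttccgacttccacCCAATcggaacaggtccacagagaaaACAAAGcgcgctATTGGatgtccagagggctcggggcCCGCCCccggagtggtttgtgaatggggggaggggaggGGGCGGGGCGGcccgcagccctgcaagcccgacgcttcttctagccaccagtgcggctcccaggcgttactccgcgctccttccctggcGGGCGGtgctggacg
Tcf7l2 first start: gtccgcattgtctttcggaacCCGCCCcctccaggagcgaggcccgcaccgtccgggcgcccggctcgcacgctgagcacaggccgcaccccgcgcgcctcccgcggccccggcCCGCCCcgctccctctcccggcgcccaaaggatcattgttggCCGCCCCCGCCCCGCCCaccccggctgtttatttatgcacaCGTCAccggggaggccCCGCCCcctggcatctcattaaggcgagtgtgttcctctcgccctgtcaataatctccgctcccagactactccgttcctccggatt

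Axin2 and Ctnnb1 are shown as the feedback inhibitor and the effector of the canonical branch. Their windows are chr11:108920099-108920398 and chr9:120933150-120933449, both on the plus strand.
Axin2: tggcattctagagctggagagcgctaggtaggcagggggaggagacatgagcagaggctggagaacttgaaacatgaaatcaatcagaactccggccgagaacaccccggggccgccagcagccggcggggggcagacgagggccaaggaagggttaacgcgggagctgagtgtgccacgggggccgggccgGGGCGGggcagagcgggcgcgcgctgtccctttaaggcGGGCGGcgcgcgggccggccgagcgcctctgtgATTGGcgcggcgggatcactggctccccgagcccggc
Ctnnb1: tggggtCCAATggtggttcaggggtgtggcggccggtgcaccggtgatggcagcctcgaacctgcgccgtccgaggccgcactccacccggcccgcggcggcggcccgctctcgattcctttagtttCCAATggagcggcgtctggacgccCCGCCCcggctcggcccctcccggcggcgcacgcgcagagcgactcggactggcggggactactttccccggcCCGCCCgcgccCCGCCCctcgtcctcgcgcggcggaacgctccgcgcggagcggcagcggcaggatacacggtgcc

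A further pair was added after its values were seen. The inner start of Tcf7l2, chr19:55895071-55895370 (plus strand), is shown because no library had a peak over it, and Wnt9b, chr11:103749772-103750071 (minus strand), because its start lies far inside the annotated gene span and was covered in every library.
Tcf7l2 inner start: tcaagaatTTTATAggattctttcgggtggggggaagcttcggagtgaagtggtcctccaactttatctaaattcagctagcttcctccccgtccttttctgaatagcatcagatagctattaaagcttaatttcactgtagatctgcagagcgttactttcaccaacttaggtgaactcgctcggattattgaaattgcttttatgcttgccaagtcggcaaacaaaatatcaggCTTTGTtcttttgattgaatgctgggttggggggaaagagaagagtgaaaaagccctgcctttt
Wnt9b: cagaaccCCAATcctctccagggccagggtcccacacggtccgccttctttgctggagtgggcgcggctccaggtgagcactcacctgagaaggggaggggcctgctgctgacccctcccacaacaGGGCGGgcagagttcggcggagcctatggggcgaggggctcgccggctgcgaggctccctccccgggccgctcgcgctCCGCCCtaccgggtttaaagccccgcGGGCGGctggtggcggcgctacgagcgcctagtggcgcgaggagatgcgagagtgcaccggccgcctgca

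The covered windows had a higher GC content than the windows without peaks. Over the 36 windows of the 27 genes the median GC content was 70.3%, against 56.3% over all 21262 windows in the table. The 21 windows with peak cover in all 4 libraries had a median of 75.3%, and the 3 with none (a start of Lef1, the inner start of Tcf7l2 and Wnt8b) had 43.7%. Across all genes the same split gave 62.3% and 45.0%, so the direction was common to promoters at large. The ratio of observed to expected CpG was 0.886 in the covered windows of these genes, against 0.786 in all covered windows.

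GC boxes were the most frequent of the searched letters. GGGCGG occurred in 29 of the 36 windows (80.6%), against 46.2% of all windows, and in 20 of the 21 covered windows (95.2%), against 69.1% of all covered windows. The Tcf/Lef core in either form was found in 9 windows (25%), against 28.3% of all, and those windows belonged to Fzd1, Fzd7, Lef1, Tcf7l1, Tcf7l2 (inner start), Wnt3, Wnt5b, Wnt8b and Wnt11. CCAAT was present in 11 windows (30.6%, all windows 38.2%) and TATAAA in 6 (16.7%, all windows 12.6%). TGACG was present in 5 windows (13.9%, all windows 23.6%), in Ctnnb1 (a start downstream of the one printed), Tcf7l2 (first start), Wnt10b and both starts of Wnt11.

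Most of the set was open at a gene end in every library. A gene end here is the stretch within 1 kb of either outermost annotated position, and 29 of the 37 genes (78.4%) had a peak there in all 4 libraries, beside 65.0% of all protein-coding genes. The other 8 genes had one in 1 to 3 libraries, and none lacked it everywhere, beside 19.2% of all genes. By role, 13 of 19 ligands, 9 of 10 Frizzled receptors, both co-receptors, all 4 Tcf/Lef factors and Ctnnb1 were open in every library, and Axin2 was not. Among the 27 genes with an annotated start in the promoter table, 24 had a peak within 1 kb of a start in all 4 libraries (88.9%), beside 64.6% of all genes with one. The median of the widest gene-end peak was 1260.5 bp over the 29 open genes and 991.5 bp over all open genes, and by role it was 986.5 bp for ligands, 1538.5 bp for Frizzled receptors and 1370 bp for Tcf/Lef factors. All values below are the width of the widest peak at a gene end, which is a length on the genome and not a strength of signal, and they are given in the order vehicle replicates 1 and 2, then dDAVP replicates 1 and 2.

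**Figure D1:**
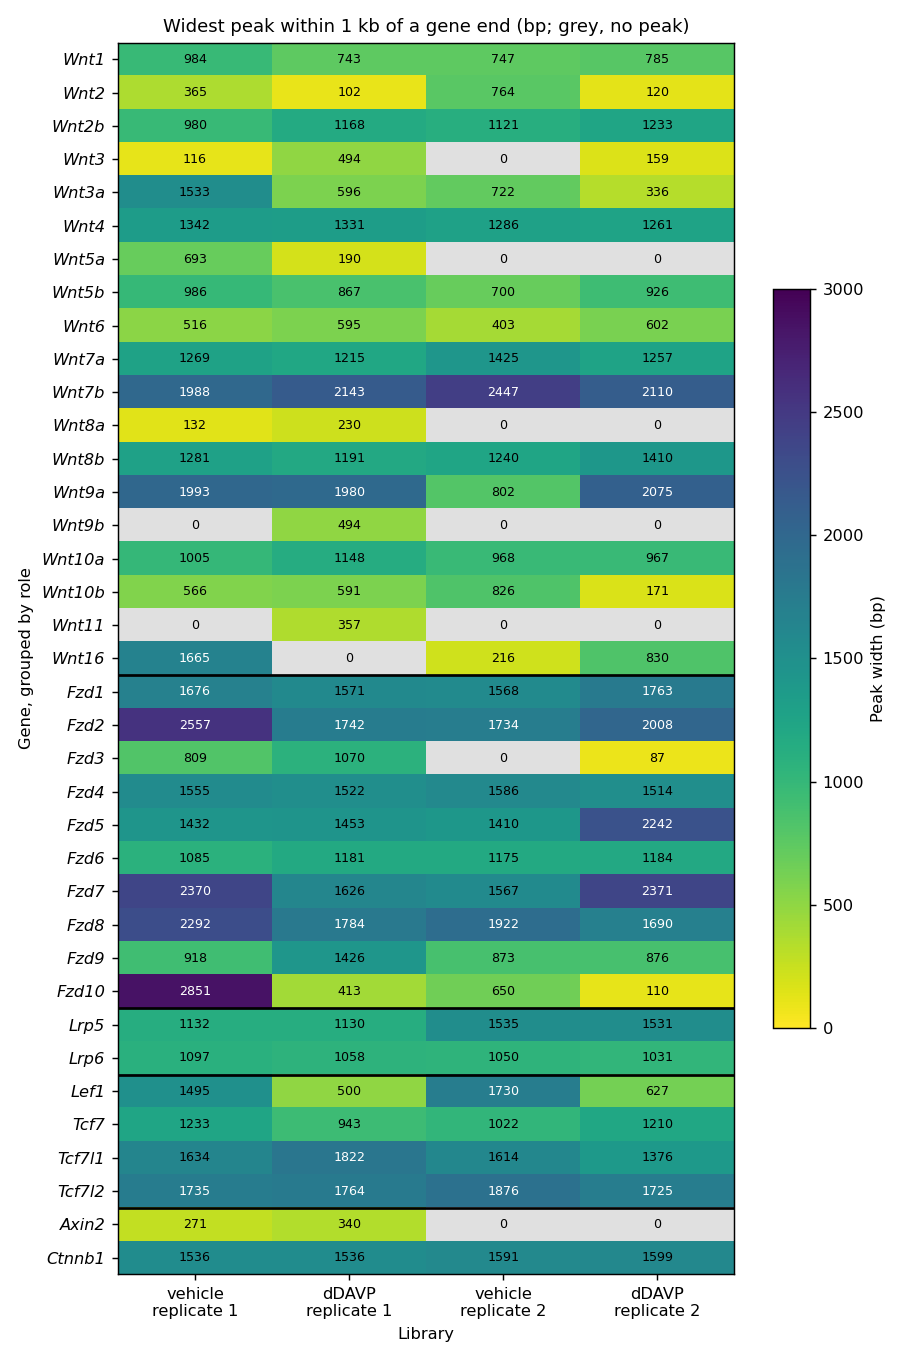
Width in bp of the broadest gene-end peak (a distance of up to 1 kb) for each of the 37 genes (vertical axis, grouped by role with black lines between roles) in the 4 libraries (horizontal axis). Colour and printed number give the width, and grey cells with 0 mark a library with no peak. The widths of Wnt4, Lrp6, Fzd4 and Ctnnb1 lie close together in the 4 libraries, while those of Fzd10, Lef1, Wnt3a and Wnt16 spread widely.

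Among the ligands, Wnt7b had the widest gene-end peaks. Wnt7b, the collecting duct ligand needed for the medulla, measured 1988 and 2447 bp with vehicle and 2143 and 2110 bp with dDAVP, wider than 98.0% of open genes. Its dDAVP values lie between the vehicle values. Wnt9a, which acts in joint formation, measured 1993 and 802 bp with vehicle and 1980 and 2075 bp with dDAVP. The low value is that of vehicle replicate 2, where the stretch carried separate peaks of 779 and 802 bp, and the groups overlap. Summed over the merged region, the covered length was 1993 and 1581 bp with vehicle and 1980 and 2075 bp with dDAVP.

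Wnt4 had the steadiest peak of the ligands that were open in every library. It measured 1342 and 1286 bp with vehicle and 1331 and 1261 bp with dDAVP, a mean of 1305 ± 38.0 bp (SD, n = 4). Wnt7a, a ligand of limb and reproductive tract patterning, measured 1269 and 1425 bp with vehicle and 1215 and 1257 bp with dDAVP, so both dDAVP values lie below both vehicle values, though less far from the nearest than the vehicle values lie from each other. Wnt8b, a ligand of the developing brain, measured 1281 and 1240 bp with vehicle and 1191 and 1410 bp with dDAVP. Its peaks lie upstream of its annotated start, ending 947 to 881 bases before it, and the promoter window itself had no peak in any library.

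Wnt2b, a canonical ligand, measured 980 and 1121 bp with vehicle and 1168 and 1233 bp with dDAVP, with both dDAVP values higher. Wnt10a, a ligand of skin and teeth, measured 1005 and 968 bp with vehicle and 1148 and 967 bp with dDAVP, and the groups overlap. Wnt5b, a close relative of Wnt5a in the non-canonical branch, measured 986 and 700 bp with vehicle and 867 and 926 bp with dDAVP. Its groups overlap too, and an end of the gene model Gm52875 lies within 2 kb of an end of Wnt5b, so a peak there cannot be assigned to Wnt5b alone.

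The other ligands open in every library had narrower peaks. Wnt1, the founding member of the family, measured 984 and 747 bp with vehicle and 743 and 785 bp with dDAVP. Wnt3a, the standard canonical ligand in cell culture, measured 1533 and 722 bp with vehicle and 596 and 336 bp with dDAVP, with both dDAVP values lower. The widest Wnt3a peak of vehicle replicate 1 lay at the far end of the gene, and at the annotated start that library had a peak of 688 bp, inside the range of the others. Wnt10b, which acts in bone and fat, measured 566 and 826 bp with vehicle and 591 and 171 bp with dDAVP. It had no region at a gene end that all 4 libraries shared, because the peak of dDAVP replicate 2 lies 980 to 810 bases upstream of the start, which the peaks of the other libraries cover.

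Wnt6, a ligand of the ureteric epithelium, measured 516 and 403 bp with vehicle and 595 and 602 bp with dDAVP, with both dDAVP values higher. These peaks are not at the start in the promoter table, which lies 17550 bp inside the gene span and carried peaks of 690 and 685 bp with vehicle and 749 and 770 bp with dDAVP. Wnt2, needed for lung formation, measured 365 and 764 bp with vehicle and 102 and 120 bp with dDAVP, and was the narrowest of the 29, wider than 2.36% of open genes. Its annotated start lies 2327 bp inside the gene span. The window there was covered to 100 and 0% with vehicle and to 0 and 72.3% with dDAVP.

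The 6 ligands without a gene-end peak in all libraries differ in where their promoters lie. Wnt9b, the ureteric inducer of nephrons, had a gene-end peak of 494 bp in dDAVP replicate 1 and none in the other libraries. That peak covers the start of the overlapping Wnt3 and is counted for both genes, so it cannot be assigned to Wnt9b alone. The annotated start of Wnt9b lies 25451 bp inside the gene span. There the window printed above was fully covered in every library, by peaks of 789 and 774 bp with vehicle and 998 and 867 bp with dDAVP. Wnt9b therefore counts as having a gene-end peak in 1 library, although its start had a peak in every library.

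Wnt11, the ligand of ureteric bud tips, had a gene-end peak of 357 bp in dDAVP replicate 1 alone. Within 1 kb of its second start, 3761 bp inside the gene span, every library had a peak, of 305 and 166 bp with vehicle and 143 and 207 bp with dDAVP, although the window at that start was covered only in vehicle replicate 1, to 8.0%. Wnt3, needed for the primitive streak, measured 116 and 0 bp with vehicle and 494 and 159 bp with dDAVP, where 0 means no peak, and it overlaps Wnt9b on chromosome 11. Wnt16, a ligand of bone, measured 1665 and 216 bp with vehicle and 0 and 830 bp with dDAVP. The presence of a gene-end peak at these 3 ligands followed no split by treatment. Wnt5a, the main non-canonical ligand, had peaks of 693 and 190 bp in vehicle and dDAVP replicate 1, and Wnt8a, a ligand of the early embryo, had 132 and 230 bp in the same libraries. Axin2 shared that pattern with 271 and 340 bp, so 3 of the 37 genes (8.11%) had a gene-end peak in the pair of replicate 1 libraries and not in replicate 2, beside 2.93% of all genes. The replicate 1 libraries also have the longest lists, and the part of list length in this was not tested.

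The Frizzled receptors, which carry the ligand-binding cysteine-rich domain, had wider peaks in the median than the ligands, the co-receptors and the Tcf/Lef factors, on the shortest genes (median 4.59 kb, against 17.2 kb for all genes). Fzd7 measured 2370 and 1567 bp with vehicle and 1626 and 2371 bp with dDAVP, a high and a low library in each treatment. Fzd2 measured 2557 and 1734 bp with vehicle and 1742 and 2008 bp with dDAVP. Fzd8 measured 2292 and 1922 bp with vehicle and 1784 and 1690 bp with dDAVP, and of these 3 receptors only Fzd8 had both dDAVP values below both vehicle values.

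Fzd1 measured 1676 and 1568 bp with vehicle and 1571 and 1763 bp with dDAVP, and its groups overlap. Fzd4, the receptor for Norrin in the retinal vasculature, measured 1555 and 1586 bp with vehicle and 1522 and 1514 bp with dDAVP, a mean of 1544 ± 33.0 bp (SD, n = 4). Both of its dDAVP values are lower, and an end of Tmem135 lies within 2 kb of its end. Fzd5, which acts in the eye and the intestinal crypt, measured 1432 and 1410 bp with vehicle and 1453 and 2242 bp with dDAVP, so both dDAVP values are higher and 1 of them far higher. Within the merged region at this end, however, the covered length summed over peaks was 2050 and 1828 bp with vehicle and 1688 and 2242 bp with dDAVP, and there the groups overlap.

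Fzd6, a planar polarity receptor of hair and skin, measured 1085 and 1175 bp with vehicle and 1181 and 1184 bp with dDAVP, so both dDAVP values are higher, by less than the vehicle values differ. Fzd9 measured 918 and 873 bp with vehicle and 1426 and 876 bp with dDAVP, and its groups overlap. Fzd10 measured 2851 and 650 bp with vehicle and 413 and 110 bp with dDAVP, a mean of 1006 ± 1249.7 bp (SD, n = 4), and was the most uneven of the set. These peaks do not cover the same stretch. Relative to the start they ran from -1775 to 1075 and from 625 to 1274 bases with vehicle. With dDAVP they ran from 664 to 1076 and from -528 to -419 bases. Summed over the merged region, the covered length was 2851 and 1528 bp with vehicle and 600 and 746 bp with dDAVP. Fzd3, a receptor of axon guidance, was the only Frizzled gene without a peak in every library, with 809 and 0 bp under vehicle and 1070 and 87 bp under dDAVP.

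The co-receptors were open in every library. Lrp6 measured 1097 and 1050 bp with vehicle and 1058 and 1031 bp with dDAVP, a mean of 1059 ± 27.7 bp (SD, n = 4). Lrp5, known for its control of bone mass, measured 1132 and 1535 bp with vehicle and 1130 and 1531 bp with dDAVP, so the replicate number and not the treatment separates its values.

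Of the Tcf/Lef factors, Tcf7l2, a main partner of beta-catenin in epithelia, had the widest peaks. It measured 1735 and 1876 bp with vehicle and 1764 and 1725 bp with dDAVP. Those peaks start 590 to 748 bases downstream of the first annotated start, and separate peaks of 759 and 745 bp (vehicle) and 780 and 729 bp (dDAVP) covered the start itself. The inner start, 153524 bp from the gene's outer end, had no cover in any library, while peaks of 859 and 555 bp (vehicle) and 501 and 178 bp (dDAVP) began 87 to 220 bases downstream of it.

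Tcf7l1, known mostly as a repressor, measured 1634 and 1614 bp with vehicle and 1822 and 1376 bp with dDAVP. Tcf7, a factor of T cell development, measured 1233 and 1022 bp with vehicle and 943 and 1210 bp with dDAVP, and an end of Skp1 lies within 2 kb of its end. Both genes overlap between treatments.

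Lef1, which like Tcf7 acts in lymphocytes and in skin, had dDAVP values below the vehicle values, with 1495 and 1730 bp under vehicle and 500 and 627 bp under dDAVP. The peaks of the vehicle libraries start 789 to 793 bases downstream of the first start and run as 1 block. The dDAVP libraries had shorter, separate peaks over the same stretch. The 627 bp peak of dDAVP replicate 2 is not among these, since it covers the first start, from -204 to 422 bases. In the stretch of the vehicle blocks that library had a peak of 792 bp, which lies beyond the 1 kb window. The widths therefore compare different sites. Summed over the region, the covered length was 1495 and 1730 bp with vehicle and 1015 and 1111 bp with dDAVP, a log2 difference of -0.56 with a standard error of 0.30 and an adjusted p of 1.0 in limma. The window at the first start of Lef1 was covered to 0 and 50.7% with vehicle and to 2.67 and 84.7% with dDAVP, so there the replicate 2 libraries were the high ones.

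Ctnnb1, which encodes beta-catenin, also a part of adherens junctions, had nearly the same peak in every library. It measured 1536 and 1591 bp with vehicle and 1536 and 1599 bp with dDAVP, a mean of 1566 ± 34.2 bp (SD, n = 4), and the window printed above was fully covered. Axin2, a target of the pathway that dampens it, had no gene-end peak in the replicate 2 libraries. Its annotated start lies 2521 bp inside the gene span, and the window there was covered to 61.7 and 58.0% with vehicle and to 63.3 and 91.7% with dDAVP, by peaks of 567 and 542 bp and of 534 and 553 bp. As at Wnt9b, the ends of the annotated span missed a start that had a peak in every library.

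**Figure D2:**
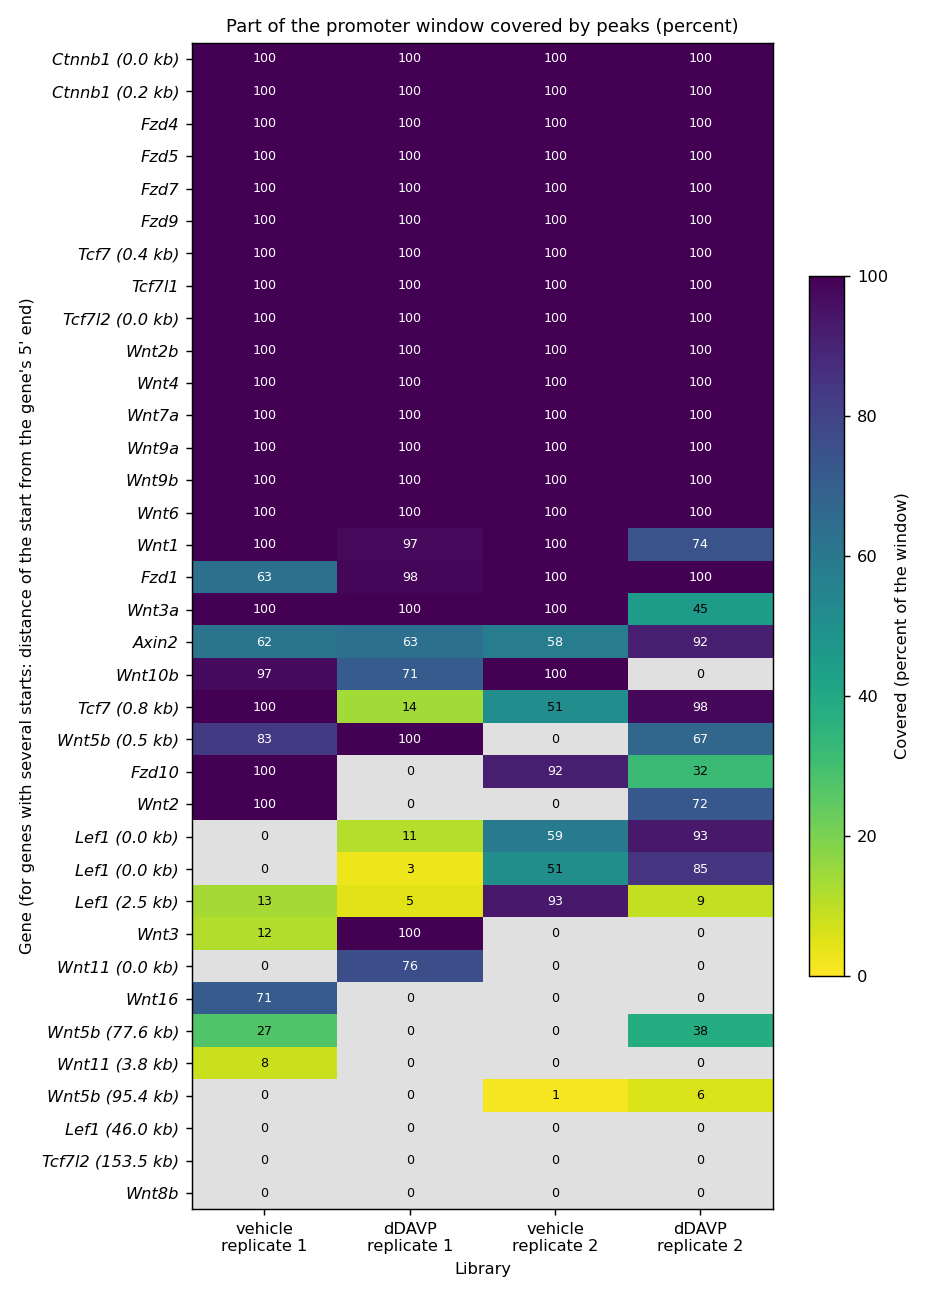
Percent of each 300-base promoter window covered by peaks (colour and printed value) for the 36 windows of the 27 genes with a promoter entry (vertical axis, with the distance of the start from the gene's outer end in kb) in the 4 libraries (horizontal axis). Of these, 21 windows (58.3%) are covered in all 4 libraries and 3 in none, and the first pair of Lef1 windows, which lie 26 bases apart, share the label 0.0 kb.

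Away from the gene ends, the surroundings of these genes held many peaks. The 4 lists had 1336, 998, 783 and 771 peaks within 50 kb of them (vehicle 1, dDAVP 1, vehicle 2 and dDAVP 2), or 339, 342, 378 and 375 per 100000 peaks of the library. After peaks that overlap by 1 bp or more were merged across libraries, 1832 regions were left, of which 372 (20.3%) were shared by all 4 libraries, beside 15.7% of the 560228 regions of the genome. Of the shared regions 37 lay at gene ends, 138 elsewhere inside genes and 197 outside, and 916 regions (50.0%) were present in a single library. The shared regions had a median width of 865 bp, against 770 bp for shared regions of the whole genome.

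The median number of shared regions differed between the classes of genes, with wide ranges within them. The median was 10 per gene over the 37 genes and 6 over all protein-coding genes. Ligands had a median of 12, Frizzled receptors 4, and both the co-receptors and the Tcf/Lef factors 21.5. The last 2 classes are also the longest genes, with medians of 111 and 138 kb, so the window around them is larger. Ligands ranged from 0 (Wnt5a) to 28 (Wnt7b) and Frizzled receptors from 1 (Fzd4) to 13 (Fzd6). Tcf/Lef factors ranged from 12 (Tcf7) to 50 (Tcf7l2), and Lrp5 had 33 and Lrp6 10. Wnt1 and Wnt10b (11650 bp apart), Wnt3a and Wnt9a (16097 bp), Wnt6 and Wnt10a (6696 bp) and the overlapping Wnt3 and Wnt9b share parts of their surroundings, and 50 shared regions count for more than 1 gene.

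Tcf7l2 had the most shared regions of the set. It had 50 within 50 kb (3 at gene ends, 29 inside and 18 outside), more than 99.8% of protein-coding genes, or 1.51 inside regions per 10 kb of gene. Around it the lists held 134 and 91 peaks with vehicle and 114 and 92 with dDAVP. Lrp5 had 33 shared regions in total, more than 99.2% of genes, and 21 of them lay inside the gene at 2.06 per 10 kb. Wnt7b had 28 in total, more than 98.5% of genes, and 9 of them lay inside the gene at 1.94 per 10 kb. Lrp5 and Wnt7b were thus more densely covered inside than Tcf7l2, on shorter genes.

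Lef1 had 22 shared regions, 11 of them inside the gene. Tcf7l1 and Wnt3a had 21 each, and for Wnt3a 16 of these lay outside the gene, some of them inside Wnt9a. At the other end, Fzd4 and Wnt8a had 1 shared region each and Wnt5a had none. The single shared region of Fzd4 is the one at its gene end, while that of Wnt8a lies outside the gene.

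**Figure D3:**
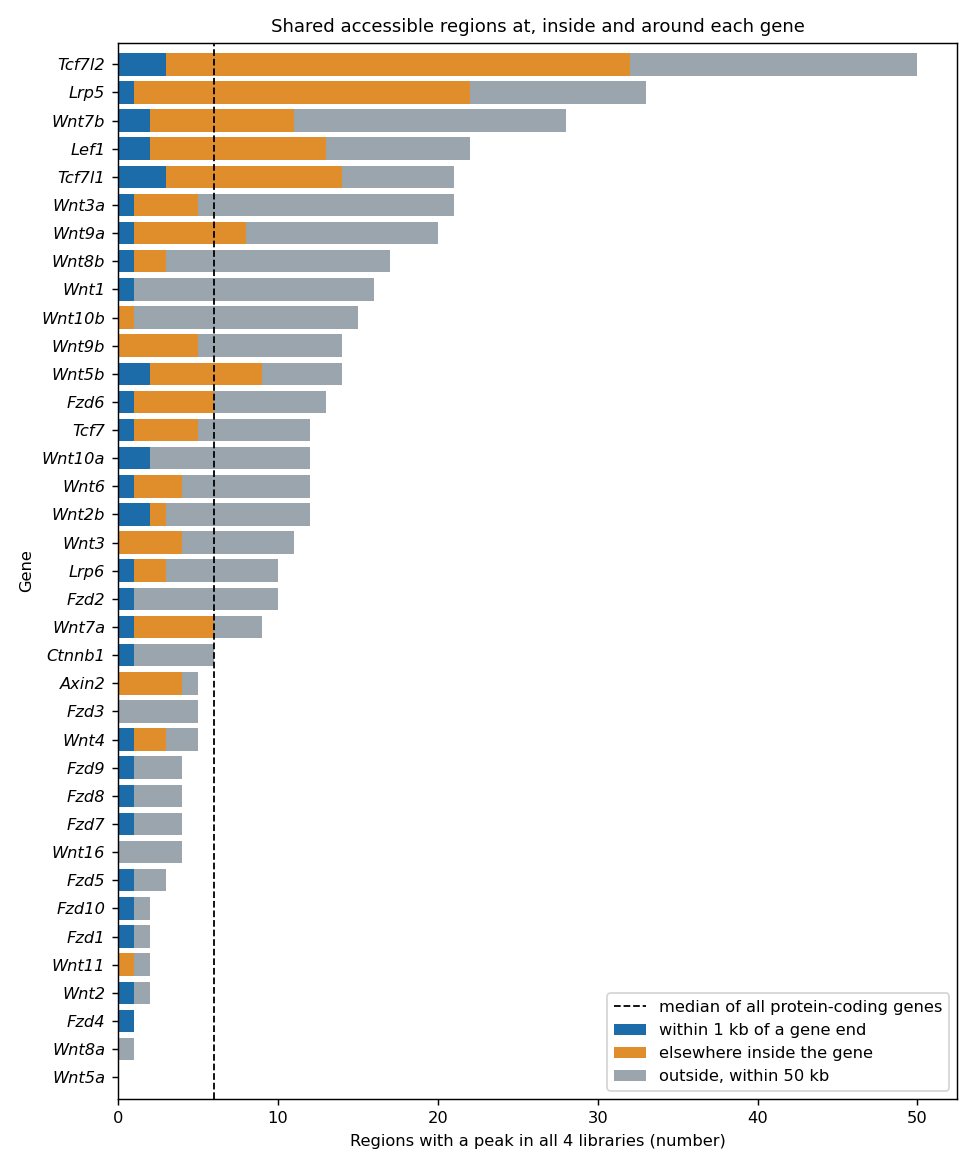
Number of regions shared by all 4 libraries (horizontal axis) at gene ends, elsewhere inside the gene and outside it within 50 kb (stacked colours) for each of the 37 genes (vertical axis). Tcf7l2 leads with 50, followed by Lrp5 with 33 and Wnt7b with 28, and Wnt5a has none.

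**Figure D4:**
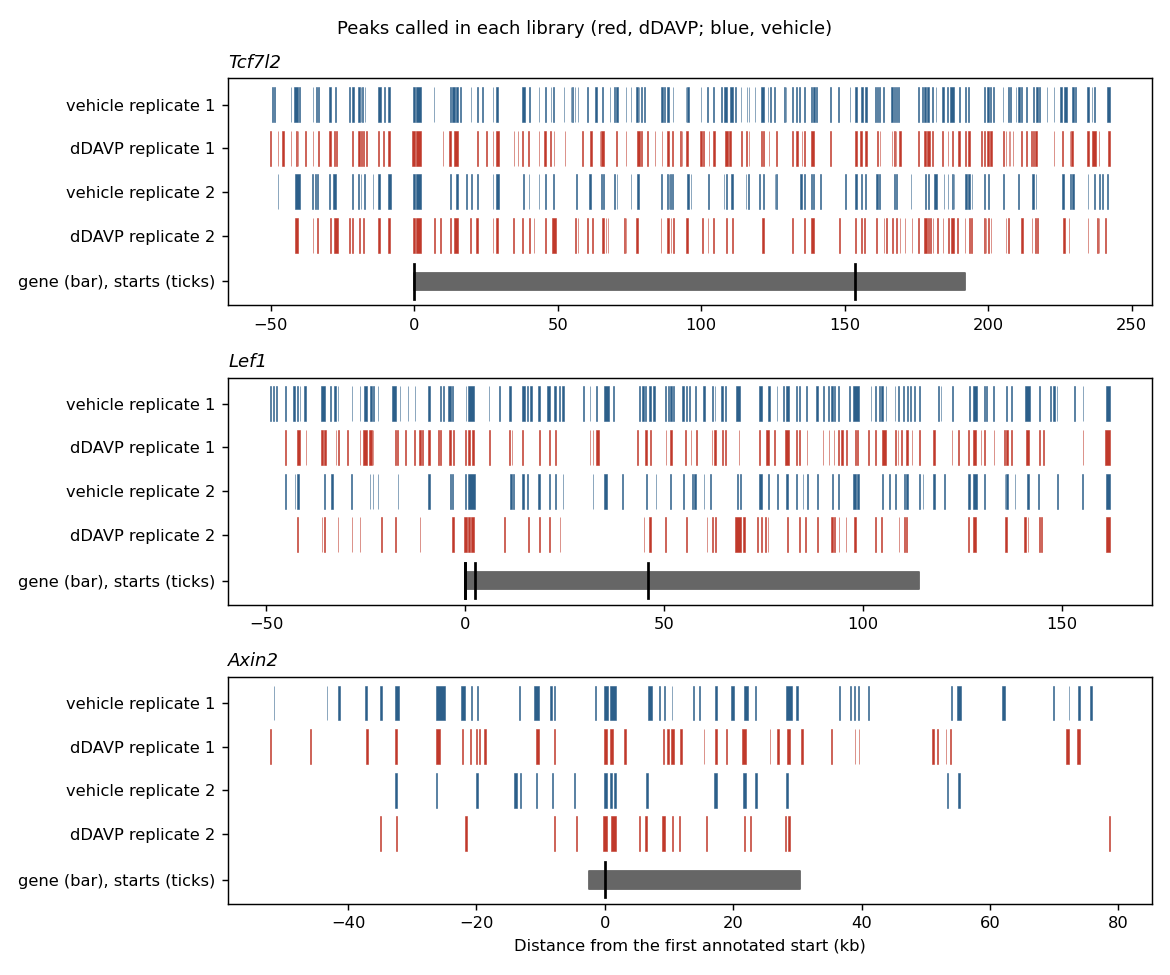
Peaks of each library (horizontal strips, drawn with a thin outline) around Tcf7l2, Lef1 and Axin2 against the distance in kb from the first annotated start, with the gene as a grey bar and its listed starts as ticks. Peaks recur at the first start of Tcf7l2 in all 4 strips, and the start of Axin2 lies inside its bar, to the right of the outer end.

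The comparison of treatments asks whether 30 minutes of dDAVP changed the accessibility of these genes. None of the 37 genes had a gene-end peak with dDAVP in both replicates and none with vehicle, beside 0.210% of all genes, and none the reverse, beside 0.868%. With 2 libraries against 2, an exact permutation test of a single value cannot give a p under 0.333, so that test could call no single gene on presence or on the width of its widest peak. Without vehicle replicate 1, Wnt3 and Fzd3 counted as present after dDAVP alone, and without dDAVP replicate 2, Wnt9b and Wnt11 did and Wnt16 counted as present with vehicle alone.

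The widest gene-end peak was wider in both dDAVP libraries for 4 of the 29 open genes (13.8%), beside 14.9% of all open genes. These were Wnt2b, Wnt6, Fzd5 and Fzd6. It was narrower in both for 7 (24.1%), beside 14.4% of all open genes, namely Wnt2, Wnt3a, Wnt7a, Fzd4, Fzd8, Fzd10 and Lef1. At Lef1 (868 bp) and Fzd4 (33 bp) the gap between the groups was larger than the spread within either treatment. The Lef1 gap compares different sites, because the widest gene-end peak of dDAVP replicate 2 (627 bp) covers the first start and the vehicle peaks do not. At the other 9 of these 11 genes the gap was smaller than the spread within vehicle, for example 237 bp against 2201 bp at Fzd10. At Fzd10 too the widest peaks did not cover the same stretch in every library. The share of all open genes with a gap larger than both spreads was not computed, so it is not known how common such gaps are.

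Regions found after 1 treatment alone were few. Of the 1832 regions near these genes, 15 (0.819%) had a peak in each dDAVP library and in no vehicle library, beside 1.61% of all regions. In the opposite direction there were 65 (3.55%), beside 3.35%. Vehicle replicate 1 had the longest list of the 4. With 1 library left out the definition is looser, and the dDAVP count became 106 without vehicle replicate 1, 153 without dDAVP replicate 1, 28 without vehicle replicate 2 and 229 without dDAVP replicate 2. The vehicle count became 205, 154, 516 and 97 in the same order. These counts depend on which libraries enter, and no region in them has a test of its own.

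The regions with dDAVP alone lay near 11 of the 37 genes (29.7%), beside 40.3% of all genes. Tcf7l2 had 3, of which chr19:55910832-55911317 inside the gene was the widest, with 486 and 253 bp of peaks in the dDAVP libraries. Lrp5 also had 3, the widest at chr19:3628240-3628872 inside the gene with 518 and 117 bp, and Lef1 had 2. Wnt7b, Wnt8b, Wnt11, Fzd9, Lrp6 and Axin2 had 1 each, and Wnt3 and Wnt9b shared 1 at chr11:103752974-103753511. The Axin2 region, chr11:108931976-108932362, lies inside the gene with 348 and 106 bp. All of them lay inside genes or outside them, and none at a gene end.

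Regions with vehicle alone lay near 28 of the 37 genes (75.7%), beside 56.3% of all genes. A single one lay at a gene end, at chr6:22298060-22298321 at Wnt16, with 262 and 216 bp in the vehicle libraries, where dDAVP replicate 2 has its gene-end peak elsewhere. Of these regions the widest was inside Lef1, at chr3:131145252-131146482, with 1190 and 622 bp in the vehicle libraries. Lef1 had 8 such regions, more than any other gene of the set, followed by Tcf7l1 with 6 and Wnt3, Wnt8b and Tcf7l2 with 5 each. A region of 978 bp at chr11:59283941-59284918, inside Wnt3a, had 563 and 718 bp. Wnt2, Wnt4, Wnt5b, Wnt8a, Fzd2, Fzd4, Fzd5 and Fzd8 had no region of either kind.

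The number of peaks within 50 kb, per 100000 peaks of the library, was higher in both dDAVP libraries for 5 of the 37 genes (13.5%), beside 13.2% of all genes. For 8 genes (21.6%) it was lower in both, beside 9.22%. Without scaling to the list length these counts were 0 and 4. Without vehicle replicate 1 the lower count was 17 and without dDAVP replicate 2 it was 16. Without vehicle replicate 2 the higher count was 15 and the lower 13, and without dDAVP replicate 1 the higher count was 14. With a library left out the definition is looser. The share of all genes was not computed for these other settings, so these counts cannot be set beside it.

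Lrp5 had the highest numbers of the 5, with 22.8 and 28.0 peaks per 100000 with vehicle and 30.9 and 33.0 with dDAVP. Wnt10b had 11.9 and 12.6 with vehicle and 13.4 and 17.0 with dDAVP. Tcf7 had 9.39 and 9.66 with vehicle and 10.6 and 11.7 with dDAVP. In Fzd2 the values were 8.88 and 10.1 against 11.0 and 11.2, and in Fzd3 they were 5.08 and 4.35 against 6.18 and 5.83. In unscaled numbers Lrp5 had 90 and 58 peaks with vehicle and 90 and 68 with dDAVP, so the order there rests on the scaling.

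Of the 8 lower genes, Tcf7l1 had 22.6 and 23.7 peaks per 100000 with vehicle and 18.9 and 21.9 with dDAVP. Wnt5b had 14.7 and 14.5 against 12.7 and 14.1, and Wnt7a had 10.2 and 11.1 against 9.95 and 8.75. Fzd6 had 12.2 and 11.6 against 11.0 and 11.2. The remaining 4 genes had few peaks, so a difference of 1 peak moves the value. Wnt4 had 3.81 and 3.87 against 3.43 and 3.40, Fzd5 3.55 and 3.87 against 2.06 and 3.40, Fzd1 3.55 and 3.38 against 2.74 and 2.92, and Wnt16 3.05 and 3.38 against 2.06 and 2.92. In unscaled numbers Fzd5 had 14 and 8 peaks with vehicle and 6 and 7 with dDAVP, and Wnt16 had 12 and 7 against 6 and 6, so these 2 kept their order.

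Length was the 1 quantity that could be fitted across the genome. For each region shared by all 4 libraries, limma was fitted to log2 of the covered length after quantile normalization, over all 88231 such regions. With an adjusted p under 0.05, 0 regions passed in either direction, near these genes or anywhere (0% of all regions). At an unadjusted p under 0.05, 9 of the 372 regions near these genes were longer after dDAVP, beside 2.41% of all regions, and 11 were shorter, beside 2.87%, which is 5.38% in either direction against 5.28%. The median log2 difference, dDAVP minus vehicle, was 0.02 near these genes and 0.04 over all regions. Both dDAVP libraries were longer at 51 of the 372 regions, beside 16.7% of all, and shorter at 44, beside 13.3%.

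The region with the lowest p lay inside Wnt9a, at chr11:59323052-59323403. Its covered length was 86 and 102 bp with vehicle and 349 and 323 bp with dDAVP, a log2 difference of 1.90 with a standard error of 0.32, an unadjusted p of 0.00382 and an adjusted p of 0.87 in limma, which ranged from 0.767 to 0.915 over the alternatives. The second, at chr6:72827236-72827704 outside Tcf7l1, had 114 and 97 bp with vehicle and 435 and 241 bp with dDAVP, a log2 difference of 1.71 with a standard error of 0.37 and a limma adjusted p of 0.87 (0.787 to 0.915). The third, at chr19:55807017-55807937 inside Tcf7l2, had 346 and 274 bp with vehicle and 810 and 646 bp with dDAVP, a log2 difference of 1.33 with a standard error of 0.29 and a limma adjusted p of 0.87 (0.787 to 1.0). In all 3 both dDAVP libraries were longer than both vehicle libraries, and none passed the adjusted threshold.

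At the gene ends no difference in length passed the threshold either. The lowest p among the 37 shared regions there was that of Wnt2, with 365 and 764 bp under vehicle and 102 and 120 bp under dDAVP, a log2 difference of -2.14 with a standard error of 0.57 and a limma adjusted p of 0.887. Next came Fzd10, with 2851 and 1528 bp against 600 and 746 bp, a log2 difference of -1.60 with a standard error of 0.43 and the same adjusted p. At the other end of the scale, the differences were 0.04 at Ctnnb1, 0.01 at Lrp6 and -0.01 at Fzd4, each with a standard error of 0.28. Wnt2 and Fzd10 were named for their values. The Wnt2 region does not reach the annotated start of the gene, where peak cover did not split by treatment.

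**Figure D5:**
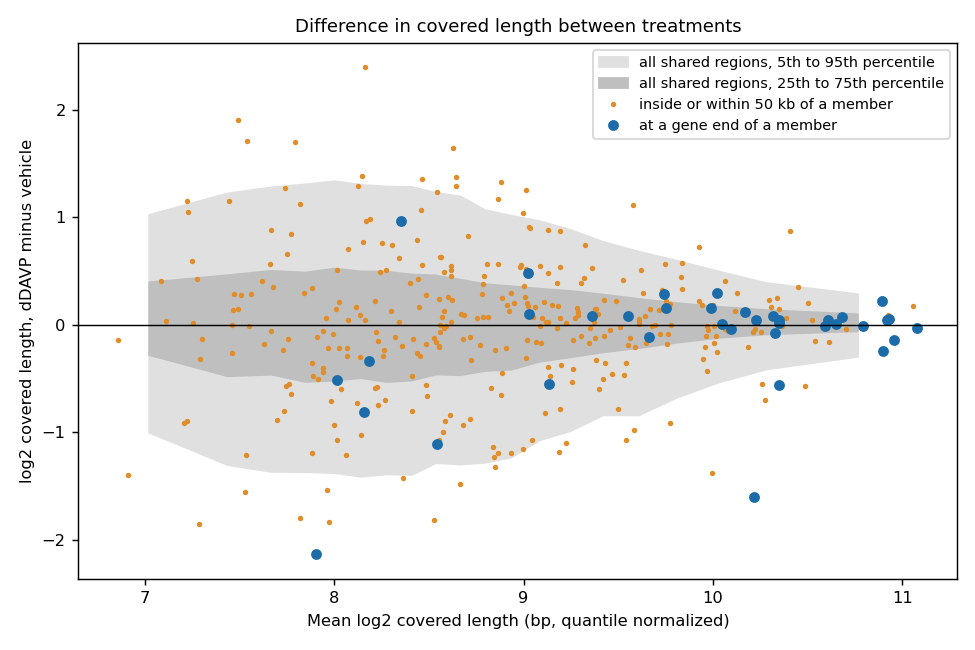
Log2 difference in covered length, dDAVP minus vehicle (vertical axis), against the mean log2 length (horizontal axis) for the 372 shared regions near these genes, with gene-end regions marked and the spread of all 88231 regions as quantile bands. Differences run from -2.14 to 2.40 near these genes, are wider for short regions, and no region passes an adjusted p under 0.05.

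Most other genes of the pathway were also open. Of 74 further genes listed by role, 72 matched the gene table (Krm1 and Krm2 were not analysed here), and 63 of the 72 (87.5%) had a gene-end peak in all 4 libraries, beside 65.0% of all genes. Both secretion genes were open, with 1883 and 2423 bp (vehicle) and 1778 and 1970 bp (dDAVP) at Wls, the carrier of Wnt proteins to the cell surface. R-spondins, which raise receptor levels, and their receptors were open in 8 of 9 cases, all but Rspo1, with the widest peaks at Znrf3, an enzyme that removes Frizzled from the surface (1588 and 1834 bp, then 1624 and 1748 bp).

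Of the secreted antagonists 9 of 13 (69.2%) were open in every library, beside 65.0% of all genes. Wif1, which binds Wnt proteins directly, had the widest peaks (1490 and 1339 bp, then 1480 and 1485 bp), and Dkk3, alone among the 72, lacked a gene-end peak in every library. All 11 genes of non-canonical reception and planar polarity were open, led by Celsr1, a polarity cadherin, with 1947 and 2022 bp, then 1997 and 2107 bp. Its dDAVP values do not lie apart from the vehicle values.

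In the cytoplasmic relay and destruction complex 19 of 21 genes were open, all but Axin1 and Nkd2, and the widest peaks were those of Tnks2, a tankyrase that marks Axin for removal (1443 and 2130 bp, then 2119 and 2322 bp). Of the 10 genes listed here as nuclear cofactors 8 were open, all but Tle2 and Ctnnd1, led by the co-repressor Tle4 (2191 and 2212 bp, then 2202 and 1196 bp). All 6 listed targets were open, led by Jun (3038 and 2489 bp, then 2269 and 2273 bp). Both dDAVP values at Jun are lower, by less than the vehicle values differ. Among all open genes 14.4% were narrower in both dDAVP libraries, and the share among these pathway genes was not computed. None of the 72 had a gene-end peak in 1 treatment alone, and the scaled number of peaks within 50 kb was higher after dDAVP in both libraries for 11 (15.3%, all genes 13.2%) and lower for 5 (6.94%, all genes 9.22%).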

How the data were processed

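ATAC-seq peaks of 4 mpkCCD libraries, 2 with vehicle and 2 with dDAVP, were used as deposited by the authors: each list has 3 columns (chromosome, start, end), so the only values are peak positions, called per library as far as the files show. Per the submitters' processing notes, cutadapt, Bowtie2, SAMtools, Picard, bedtools, MACS2 and the build mm10 were used. Versions, thresholds, handling of duplicate reads and any shift for the transposase (not given in the sources used here) move peak edges and numbers. Depth is unknown, so no interval is given.

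Genes came from a RefSeq table of GRCm38.p6 (21883 protein-coding genes, mitochondrial genes left out). Treatment and replicate came from the sample titles. Peaks overlapping by at least 1 bp were merged into regions; coordinates are 1-based. Covered lengths were fitted with limma 3.58.1 in R 4.3.3, with Benjamini-Hochberg adjustment over all regions at 0.05. The limma fit was tested on simulated lengths, and the outcome is not reported here.

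Genes and lists were chosen with earlier results of these data known. Values per library are given for genes open at a gene end in every library, genes called in a direction, the 5 with the most shared regions, the 3 regions of lowest p and, among other pathway genes, the widest open one per role and those with no peak. Values for further genes, for regions present after 1 treatment and for the gene-end regions of Lef1, Fzd5, Wnt2 and Fzd10 were chosen after they were seen.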

Additional observations from a re-analysis of the deposited data

How the results depend on the processing

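Of the 37 genes, 29 had a gene-end peak in all 4 libraries, and the count was 24 to 31 over other windows, peak sets and libraries left out. With only the widest peaks of each library, as many as the shortest list has, 1 gene (Wnt3) had a gene-end peak with dDAVP alone, 34 regions were present with dDAVP alone and 3 genes had a higher peak number (Wnt1, Wnt10b and Lrp5). With peaks at least as wide as their library's median, 1 gene (Wnt2) had a gene-end peak with vehicle alone, 211 regions were shared, 38 were present with vehicle alone and 8 genes had a higher peak number. A distance of 20 kb gave 41 regions with vehicle alone and 5 genes with a lower number (Wnt4, Wnt7a, Wnt16, Fzd1 and Fzd5), and 100 kb gave 37 and 103 regions with dDAVP and with vehicle alone. Asking for cover of at least 50% of a region left 139 shared regions and gave 34 with dDAVP alone. Without scaling, 0 genes had a higher and 4 a lower number (Fzd5, Fzd7, Fzd9 and Wnt16).

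Leaving out 1 library at a time gave 0 to 2 genes with a gene-end peak after dDAVP alone and 0 to 1 with vehicle alone. It gave 28 to 229 regions with dDAVP alone, 97 to 516 with vehicle alone, 6 to 15 genes with a higher and 12 to 17 with a lower peak number. For presence and peak number, the shares of all genes and of all regions were not computed under any of these alternatives. The limma count stayed at 0 under each alternative. The replicate block gave 0 regions, with a lowest adjusted p of 0.874 near these genes in limma. The labels do not say that numbers pair the libraries. Deviations of log2 length from the mean of each treatment correlated at r = 0.097 between same-numbered libraries, across 88231 regions. Peak lists without depth or height limit what can be said to presence and length.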
